A study of Mus musculus with 9 samples.

Results

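The genes examined here are 8 parts of the contractile apparatus of smooth and cardiac muscle: Acta2, Actc1, Actg2, Tagln, Cnn1, Myl9, Tpm1 and Tpm2. They were read in D3-pOct4 cells, a mouse embryonic stem cell line, through every probe set whose only gene symbol in the platform annotation is 1 of the 8. This gave 16 of the 45101 probe sets on the array. The 8 genes were chosen by their signals on these same arrays, so their levels and their shared pattern are given as a description with no test of the list. A probe set is a group of short probes for 1 transcript, and its signal is a brightness on a linear scale. A probe set was tested if its signal reached the 40th percentile of the array on at least 3 of the 9 arrays, and 13 of the 16 probe sets, covering 7 of the 8 genes, were tested.

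All cultures were grown for 7 days and fell into 3 groups of 3 arrays. The donor group had no leukemia inhibitory factor (LIF) and received 2 µM DETA/NO, a compound that slowly releases nitric oxide. The second group had no LIF and no donor, and the third received 1000 U/ml of LIF, the cytokine that keeps these cells undifferentiated. Replicates 1, 2 and 3 of every group came from passages 31, 33 and 34 of this 1 line, and nothing further is said of how separate the cultures were, so a p-value here covers array-to-array spread, which may be technical. The labels do not say whether feeder cells were present.

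Muscle contracts when myosin pulls on filaments of actin, and each of the 8 genes encodes a part of that filament or of its control. Smooth muscle alpha-actin (Acta2), cardiac alpha-actin (Actc1) and enteric smooth muscle gamma-actin (Actg2) build the filament. Tropomyosins lie along it, transgelin and calponin bind it, and the regulatory light chain sets myosin's activity in smooth and non-muscle cells. Many of these genes are targets of serum response factor (SRF) and its co-activators of the myocardin family, which bind a promoter element called the CArG box. Several are also used outside muscle, in the stress fibres of cells that spread or lose their epithelial form.

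Promoters are shown for the genes in which a listed element was found, because most of these genes varied together over the arrays. Promoter sequences from RefSeq (GRCm38.p6) ran from 250 bases before to 50 bases after a start site and were matched for 6 of the 8 genes. Of 32851 promoters in that table, 1.63% hold a CArG box on either strand, and 2 of the 6 do. Actc1 (chr2:114052826-114053125, minus strand) holds it from position -47 and Myl9 (chr2:156775214-156775513, plus strand) from position -161, counted from the start site. The letters CATTCC, bound by TEAD factors, were found on the reverse strand in Acta2 (chr19:34255324-34255623, minus strand) from position -146 and in Tpm1 (chr9:67049164-67049463, minus strand) from position -56. Either strand of 14.7% of all promoters holds CATTCC. In the sequences below, written 5′ to 3′ along the gene, capitals mark the CArG box in Actc1 and Myl9 and the reverse of CATTCC in Acta2 and Tpm1.
Actc1: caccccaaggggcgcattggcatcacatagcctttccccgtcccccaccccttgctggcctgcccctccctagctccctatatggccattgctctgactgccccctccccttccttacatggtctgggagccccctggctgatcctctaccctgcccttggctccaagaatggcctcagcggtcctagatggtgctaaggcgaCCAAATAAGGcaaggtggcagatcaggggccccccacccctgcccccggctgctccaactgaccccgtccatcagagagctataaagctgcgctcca
Myl9: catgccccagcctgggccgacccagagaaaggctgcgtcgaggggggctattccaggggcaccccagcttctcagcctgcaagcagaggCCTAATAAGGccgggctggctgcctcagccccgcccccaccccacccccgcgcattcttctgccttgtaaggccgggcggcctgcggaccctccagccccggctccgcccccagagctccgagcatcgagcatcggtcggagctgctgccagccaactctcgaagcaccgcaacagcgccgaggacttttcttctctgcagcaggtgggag
Acta2: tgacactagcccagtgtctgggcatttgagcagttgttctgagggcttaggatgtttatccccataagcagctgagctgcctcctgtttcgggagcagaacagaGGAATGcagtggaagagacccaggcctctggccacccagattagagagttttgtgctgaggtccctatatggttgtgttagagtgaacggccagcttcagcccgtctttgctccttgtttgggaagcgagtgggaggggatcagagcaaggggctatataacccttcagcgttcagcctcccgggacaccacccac
Tpm1: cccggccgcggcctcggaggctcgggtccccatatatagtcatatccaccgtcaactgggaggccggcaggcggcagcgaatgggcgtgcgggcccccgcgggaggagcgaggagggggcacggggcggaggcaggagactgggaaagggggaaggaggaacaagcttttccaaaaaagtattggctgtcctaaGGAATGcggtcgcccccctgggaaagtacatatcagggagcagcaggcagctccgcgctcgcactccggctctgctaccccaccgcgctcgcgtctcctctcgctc

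With 1 mismatch allowed, a CArG box was found in 4 of the 6 promoters, Actc1, Myl9, Acta2 and Tpm1, against 19.9% of all promoters. In Acta2 the site from position -84 reads CCCTATATGG and also occurs in Actc1 from position -175. None of these sites overlapped another. The windows of Tpm2 (chr4:43523505-43523804, minus strand) and Cnn1 (chr9:22099003-22099302, plus strand) matched none of these letters. Of the 6 tabulated start sites, only that of Actc1 is the outermost start of its gene in the same annotation; those of Acta2, Myl9, Tpm1, Tpm2 and Cnn1 lie inside the gene. A match in such a window is a description of letters, not a bound site.

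Socs3, a direct target of the LIF pathway, reads whether an array follows its label. It read 95.8, 405 and 127 on donor replicates 1, 2 and 3, 102, 3054 and 330 on no LIF replicates 1, 2 and 3, and 3213, 282 and 1794 on LIF replicates 1, 2 and 3. The arrays labelled no LIF replicate 2 and LIF replicate 2 therefore go against their labels, and all directions below keep the labels. Over the 29811 tested probe sets, donor replicate 3 and no LIF replicate 1 were the most alike arrays (r = 0.977), though from different groups and passages, and whether they share a source was not tested. Array medians were 13.9 to 23.3, highest on LIF replicate 1 and donor replicates 1 and 2, and the 3' to 5' ratio of beta-actin was 1.52 to 3.15. All 7 embryonic stem cell markers reached the 40th percentile on all 9 arrays, Pou5f1 at 958 to 3211.

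The alpha-actins were read first. Acta2 had signals of 278.4, 301.8 and 32.7 on donor replicates 1, 2 and 3, of 35.1, 25.1 and 201.2 on no LIF replicates 1, 2 and 3, and of 26.7, 233.9 and 141.1 on LIF replicates 1, 2 and 3. Each group thus held at least 1 array at the low end, and the groups overlapped. This probe set, 1416454_s_at, carries the suffix that Affymetrix gives to probes matching several transcripts, so its signal cannot be assigned to Acta2 alone. Skeletal alpha-actin (Acta1) followed the same order closely, at 354.8, 525.3 and 65.9 on the donor arrays, 55.1, 14.5 and 503 on the arrays without LIF and 33.8, 589.7 and 187 on the LIF arrays, all in the order of replicates 1 to 3. The log2 signals of Acta2 and Acta1 had r = 0.96 over the 9 arrays and r = 0.96 again without the 2 arrays farthest from the median of Acta1. Whether the 2 probe sets read the same transcript was not tested. The other probe sets of Acta2, 1444105_at and 1456658_at, had signals of 0.376 to 9.36 and 0.576 to 8.63 and reached the 40th percentile on 0 arrays. The first of them, untested, was higher on the 3 donor arrays, at 3.51 to 9.36, than on the arrays without LIF, at 0.376 to 2.43, or with LIF, at 0.609 to 2.6, all under the filter. Among tested probe sets, 8.92% did not overlap between the donor and no LIF and 5.98% between the donor and LIF, in either direction.

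Actc1, the actin of the heart, had signals of 45.2, 29.9 and 22.6 on donor replicates 1, 2 and 3, of 24.9, 0.733 and 36.9 on no LIF replicates 1, 2 and 3, and of 1.99, 23.9 and 6.28 on LIF replicates 1, 2 and 3. It was lowest on no LIF replicate 2 and LIF replicate 1, and the donor and LIF groups overlapped by a single pair of arrays, donor replicate 3 and LIF replicate 2. Even its highest signals were dim, and it reached the 40th percentile on 6 arrays. Actg2 had signals of 11.6, 10.3 and 5.19 on the donor arrays, 7.5, 14.3 and 0.275 on the arrays without LIF and 7.51, 7.16 and 10.7 on the LIF arrays. It reached the 40th percentile on 2 arrays and was not tested.

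Among the actin-binding proteins, transgelin (Tagln, also called SM22 alpha) had the highest SD of the log2 signal over the 9 arrays, 2.37. Tagln read 320.7, 632 and 845.3 on donor replicates 1, 2 and 3, 544.8, 17.8 and 1087 on no LIF replicates 1, 2 and 3, and 11.2, 1015 and 205.7 on LIF replicates 1, 2 and 3. Tagln was highest on no LIF replicate 3 and lowest on LIF replicate 1, the only array on which it did not reach the 40th percentile. Calponin 1 (Cnn1), which restrains myosin on the filament, had signals of 14.2, 34.5 and 61.2 on the donor arrays, 37.4, 0.388 and 15.7 on the arrays without LIF and 5.31, 20.8 and 7.44 on the LIF arrays. Its lowest arrays were again no LIF replicate 2 and LIF replicate 1, and it reached the 40th percentile on 6 arrays. All 3 groups overlapped for both genes.

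The regulatory light chain Myl9 had signals of 9.08, 15.9 and 105.7 on donor replicates 1, 2 and 3, of 89.4, 11.7 and 26.4 on no LIF replicates 1, 2 and 3, and of 8.49, 47.1 and 12.9 on LIF replicates 1, 2 and 3. The 2 highest arrays were donor replicate 3 and no LIF replicate 1, the most alike pair of the series, while Acta2 had only 32.7 and 35.1 on them. The groups overlapped, and Myl9 reached the 40th percentile on 7 arrays.

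The tropomyosins, which lie along the actin filament, had 4 probe sets each. Tpm1 (1423049_a_at) had signals of 350.1, 602.3 and 1621 on donor replicates 1, 2 and 3, of 1670, 112.8 and 1282 on no LIF replicates 1, 2 and 3, and of 69.7, 1692 and 363.7 on LIF replicates 1, 2 and 3. A second probe set, 1423721_at, gave 385.2, 850.9 and 1440 on the donor arrays, 1428, 105.8 and 1131 on the arrays without LIF and 37.3, 1724 and 418.6 on the LIF arrays. Both were lowest on LIF replicate 1 and no LIF replicate 2, highest on LIF replicate 2, and correlated at r = 0.982. The 2 remaining Tpm1 probe sets, 1456623_at at 32.3 to 283 and 1447713_at at 0.377 to 19.8, had r of 0.753 and 0.635 with the first. Tpm2 (1419738_a_at) had signals of 87.4, 458.2 and 455.4 on the donor arrays, 441.3, 77.3 and 483.7 on the arrays without LIF and 34.1, 487 and 224.6 on the LIF arrays. A second Tpm2 probe set, 1425028_a_at, ran from 8.08 to 294.8 and followed it at r = 0.991. The groups overlapped for both genes. The last 2 probe sets of Tpm2, 1419739_at and 1449577_x_at, were dim at 11.3 to 27.4 and 4.34 to 23.7 and followed it less closely, at r = 0.542 and 0.293.

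**Figure D1:**
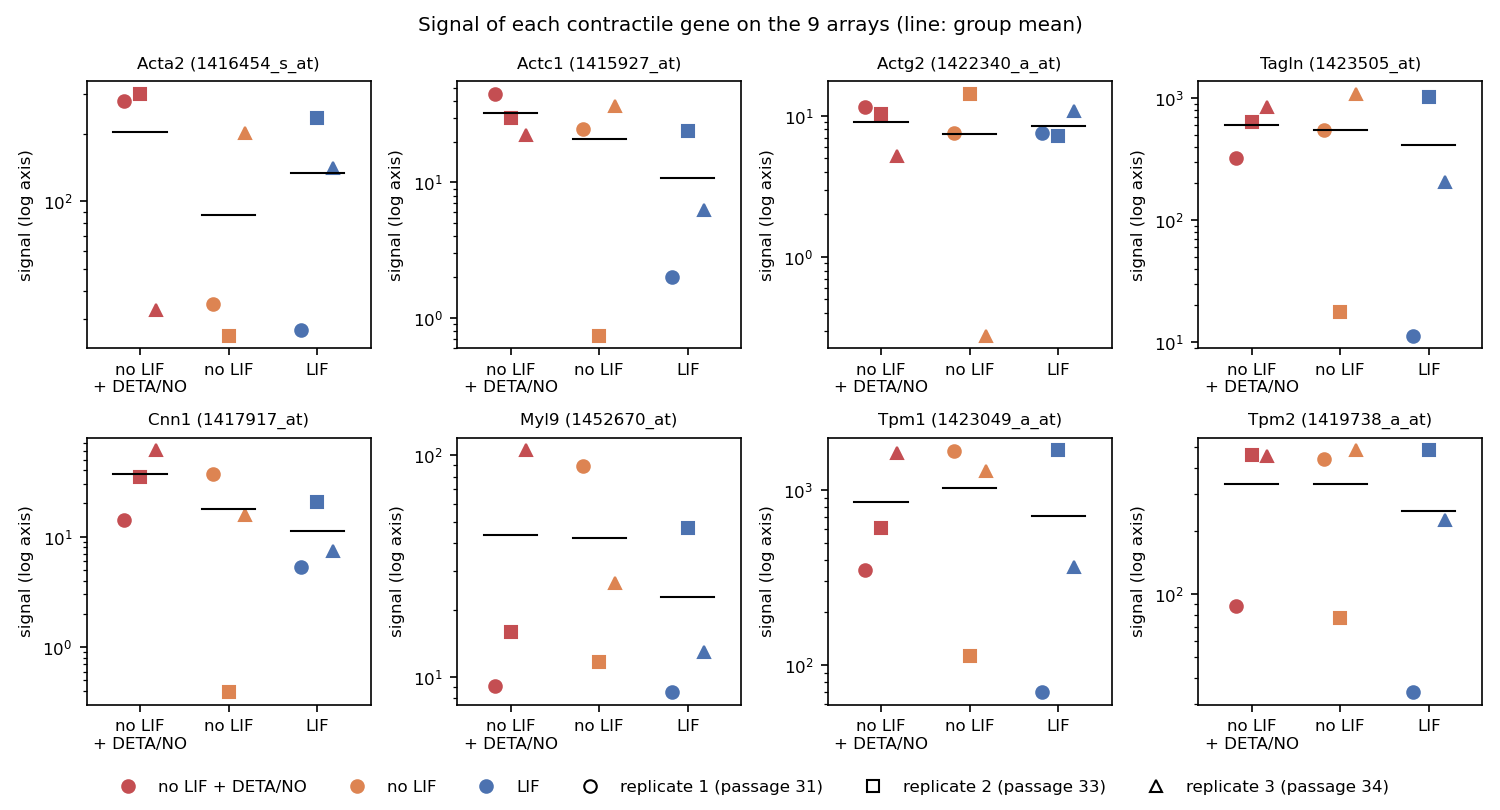
Signal on a log axis (arbitrary units) of the probe set standing for each contractile gene, with groups along the x axis, 1 point per array, marker shapes for the replicates and a line at the group mean. No LIF replicate 2 and LIF replicate 1 lie at the bottom of the Tagln panel at 17.8 and 11.2, and in all 8 panels the groups overlap.

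Over the 9 arrays the spread of 7 of the 8 genes was high. The SD of the log2 signal was 2.37 for Tagln, above 99.9% of tested genes, and 1.25 to 1.71 for Acta2, Actc1, Cnn1, Myl9, Tpm1 and Tpm2, above 96.4% to 99.4%. For Actg2 it was 0.7, and the median of all tested genes was 0.55. Little of this spread lay between the groups. The share of variance between groups was 6.26% to 29.8% for the 8 genes, against a median of 17.6% over all tested genes, and the share between passages was 2.75% to 33.4%, against 17%.

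Most of the genes were low on the same arrays, while the arrays on which they were highest differed. Averaged over the 8 genes, each centred on its own mean, the log2 signal stood at 0.07, 0.73 and 0.86 on donor replicates 1, 2 and 3, 0.73, -1.75 and 0.64 on no LIF replicates 1, 2 and 3, and -1.95, 0.98 and -0.3 on LIF replicates 1, 2 and 3. LIF replicate 1 was among the 2 lowest arrays for 7 of the 8 genes and no LIF replicate 2 for 6. The highest mean came from LIF replicate 2, which was among the 3 highest arrays for 5 of the 8 genes, the most for any array. Against the log2 median of the array, the mean of the 8 genes had r = -0.45 and rho = -0.75, and the part of brightness in the pattern was not tested. Group means were 0.55 ± 0.42 with the donor, -0.13 ± 1.41 without LIF and -0.43 ± 1.47 with LIF (SD, n = 3 each).

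**Figure D2:**
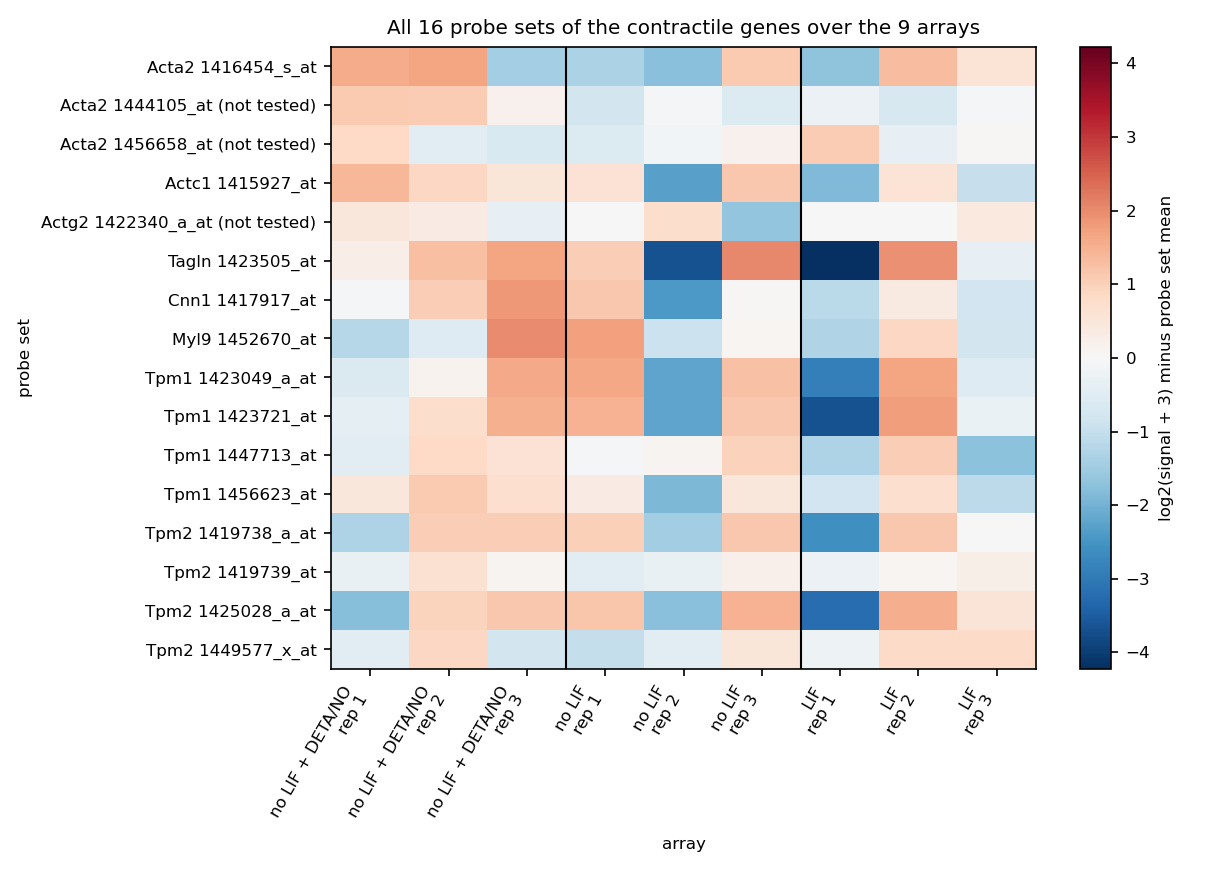
Log2(signal + 3) of all 16 probe sets, 1 per row, minus the row's mean over the 9 arrays, with 1 column per array, vertical lines between groups and red above and blue below the mean. The columns of no LIF replicate 2 and LIF replicate 1 are blue for Actc1, Tagln, Cnn1 and the Tpm1 probe sets 1423049_a_at and 1423721_at, and the dim probe sets of Acta2, Actg2 and Tpm2 show little of this pattern.

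Of the 28 pairs of genes, 20 had a positive Pearson correlation over the 9 arrays and 16 had r of 0.5 or more. The median r was 0.643, the median Spearman rho was 0.508, and the range of r was -0.498 to 0.946. Among all pairs of tested genes the median r was 0.02, and 18.1% had r of 0.5 or more, against 57.1% of these 28 pairs. Tagln, Tpm1 and Tpm2 formed the tightest trio at r of 0.908 to 0.946. The exceptions were Actg2, which correlated negatively with all 7 others (-0.498 to -0.133), and the pair of Acta2 and Myl9 (-0.225).

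Much of the shared pattern came from the 2 lowest arrays. Without LIF replicate 1 and no LIF replicate 2 the median r over the 28 pairs was 0.151, and 16 pairs stayed positive. Over the 21 pairs of the 7 tested genes, the median r was 0.746 with all arrays and 0.511 without those 2. Tagln and Tpm1 kept r = 0.831, Tpm1 and Tpm2 0.794, and Myl9 and Tpm1 0.904. Acta2 then had a negative r with 5 of the others, among them -0.824 against Myl9, -0.594 against Cnn1 and -0.539 against Tpm1. With each group's mean taken off, the median r over the 28 pairs and 9 arrays was 0.666.

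**Figure D3:**
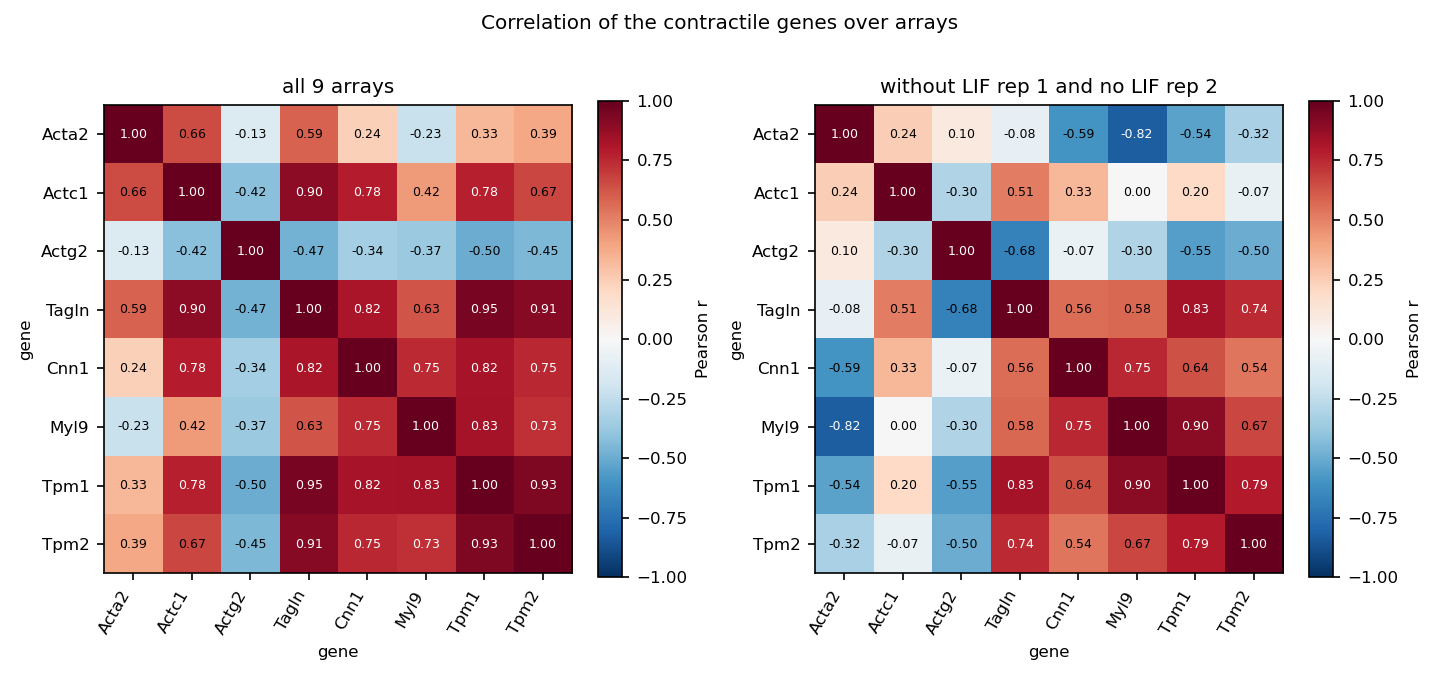
Pearson correlation of log2(signal + 3) between the 8 genes over all 9 arrays (left) and over 7 arrays without LIF replicate 1 and no LIF replicate 2 (right), red positive and blue negative. The block of Tagln, Cnn1, Myl9, Tpm1 and Tpm2 stays positive on the right, at 0.538 to 0.904, while Acta2 and Myl9 stand at -0.824.

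The first comparison sets the donor against no LIF. Of the 8 genes, 7 were higher with the donor, with log2 differences from 0.05 for Tpm2 to 1.34 for Cnn1, and Myl9 stood at -0.23. Tagln differed by 1.27 (SE 1.59), Acta2 by 1.27 (SE 1.04), Cnn1 by 1.34 (SE 0.86) and Actc1 by 1.1 (SE 0.87). The median was 0.78, against -0.02 over all tested genes, of which 47.6% were higher. None of these differences passed the test: limma called 0 of the 7 tested genes, beside 0 of 29811 probe sets (percent called 0), with 1498 probe sets (5.02%) and 0 of the 7 genes at an unadjusted p under 0.05. The groups overlapped for all 8 genes, while 8.92% of tested probe sets did not overlap.

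By passage, the donor array was higher for 3 of 8 genes at passage 31 (median -1), 7 of 8 at passage 33 (2.83) and 4 of 8 at passage 34 (0.13). Passage 33 pairs the donor with no LIF replicate 2, the array whose Socs3 goes against its label, and without that array 4 of 8 genes were higher with a median of -0.21. With array brightness as a block 8 of 8 were higher, with a median of 1.46, and without the most alike pair of arrays 7 of 8, with a median of 1.24. The bright block was donor replicates 1 and 2 and LIF replicate 1, with no array of the no LIF group. Brightness and group thus partly coincide in every comparison, and this block cannot tell them apart.

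The second comparison sets no LIF against LIF. Of the 8, 6 were higher without LIF, with log2 differences of 0.1 for Cnn1 to 0.82 for Tpm1 (SE 1.2), and Acta2 and Actg2 stood at -0.74 and -0.43. Tagln differed by 0.68 (SE 1.59), Myl9 by 0.71 (SE 0.92) and Tpm2 by 0.69 (SE 1.02). The other Tpm2 probe sets did not share 1 direction: 1425028_a_at stood at 0.66, and the dim 1419739_at and 1449577_x_at at -0.2 and -0.78. The other Tpm1 probe sets, 1423721_at, 1447713_at and 1456623_at, stood at 0.863, 0.997 and 0.042. The median was 0.63, against 0.01 over all tested genes, of which 50.4% were higher. Limma again called 0 of the 7 tested genes and 0 of 29811 probe sets (percent called 0), with 459 probe sets (1.54%) and 0 of the 7 genes at an unadjusted p under 0.05. The groups overlapped for all 8 genes, while 7.6% of tested probe sets did not overlap.

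The passages took opposite directions. Without LIF, 7 of 8 genes were higher at passage 31, by 5.27 for Tagln and 4.52 for Tpm1 on the log2 scale, and the median was 2.74. At passage 33, 1 of 8 was higher and the median was -2.83, with Tagln at -5.62 and Tpm1 at -3.87. At passage 34, 7 of 8 were higher with a median of 0.99. Without both replicate 2 arrays of these groups, the ones whose Socs3 goes against their labels, 7 of 8 were higher with a median of 2.12 and 0 probe sets called. Socs3 itself had r = -0.836 with the mean of the 8 genes. Leaving arrays out by Socs3 therefore favours this direction, and the value is no independent check. Without LIF replicate 1 the median was -0.35, and with brightness as a block it was -0.16, each with 2 of 8 genes higher. Without the most alike pair of arrays, or without no LIF replicate 1 alone, it was 0.02 with 4 of 8 higher, and without no LIF replicate 3 it was 0.08 with 4 of 8.

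The third comparison sets the donor against LIF and shares its arrays with the other comparisons. All 8 genes were higher with the donor, from 0.04 for Actg2 to 1.95 for Tagln (SE 1.59), with Actc1 at 1.67 (SE 0.87) and Cnn1 at 1.44 (SE 0.86). Actc1 and Cnn1 were higher with the donor at all 3 passages, by only 0.29 and 0.66 at passage 33. Both were under the 40th percentile on LIF replicates 1 and 3, and the share of all tested genes higher at every passage was not counted. The median was 0.86, against -0.01 over all tested genes, of which 49.1% were higher. Limma called 0 of the 7 tested genes and 0 of 29811 probe sets (percent called 0), with 578 probe sets (1.94%) and 0 of the 7 genes at an unadjusted p under 0.05. The groups overlapped for all 8 genes, while 5.98% of tested probe sets did not overlap. By passage, 8, 4 and 6 of 8 genes were higher at passages 31, 33 and 34, and without LIF replicate 1 the count was 4 of 8 with a median of 0.01. With brightness as a block 7 of 8 were higher with a median of 1.64, and without the most alike pair 7 of 8 with a median of 0.69.

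**Figure D4:**
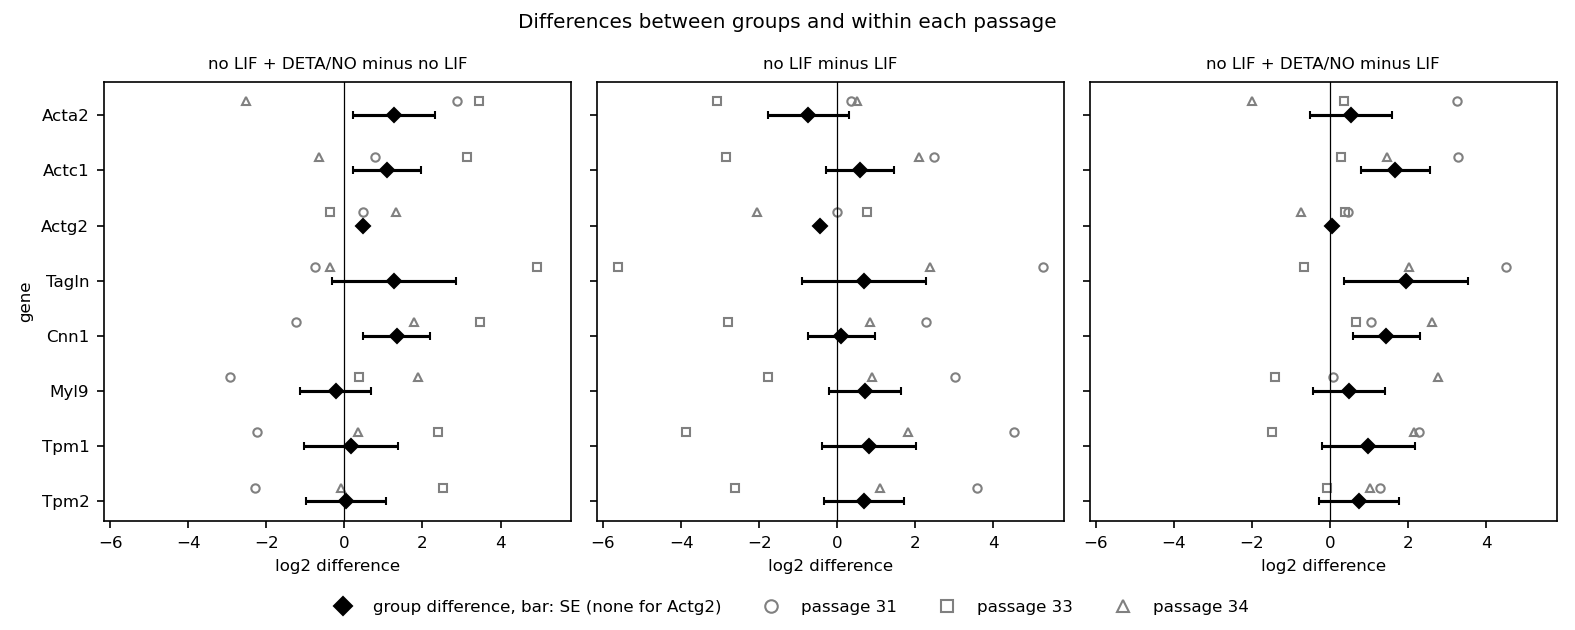
Log2 difference of each gene in the 3 comparisons (diamonds, bars are the limma standard error, none for the untested Actg2) and the same difference within each passage (open grey markers). For Tagln without LIF against LIF, passages 31 and 33 stand at 5.27 and -5.62 around a group difference of 0.68.

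The arrays low in contractile signal were those high in Socs3. The mean over the 8 genes had r = -0.836 with Socs3 (rho = -0.667) over the 9 arrays, and r = -0.496 without LIF replicate 1 and no LIF replicate 2. Actc1 followed Socs3 inversely most closely at r = -0.906, and -0.753 without those 2 arrays, while Acta2 stood at -0.333 with them and 0.357 without. Klf4, a naive pluripotency factor, had r = -0.766 with the mean and r = -0.89 without its own 2 farthest arrays, which are no LIF replicate 1 and donor replicate 3. Fgf5, a marker of primed epiblast, had r = 0.796 with the mean and 0.76 without its own 2 farthest arrays, and Cnn1 followed it at r = 0.919. Those 2 arrays are no LIF replicate 2 and LIF replicate 3, so the low LIF replicate 1 stayed in. Fgf5 read only 0.576, 0.888 and 0.71 on no LIF replicate 2, LIF replicate 1 and LIF replicate 3. Its highest signals, 567 and 521, were on donor replicate 3 and no LIF replicate 1, the most alike pair. All these arrays share a cell line, and the correlations are descriptions over 9 points.

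**Figure D5:**
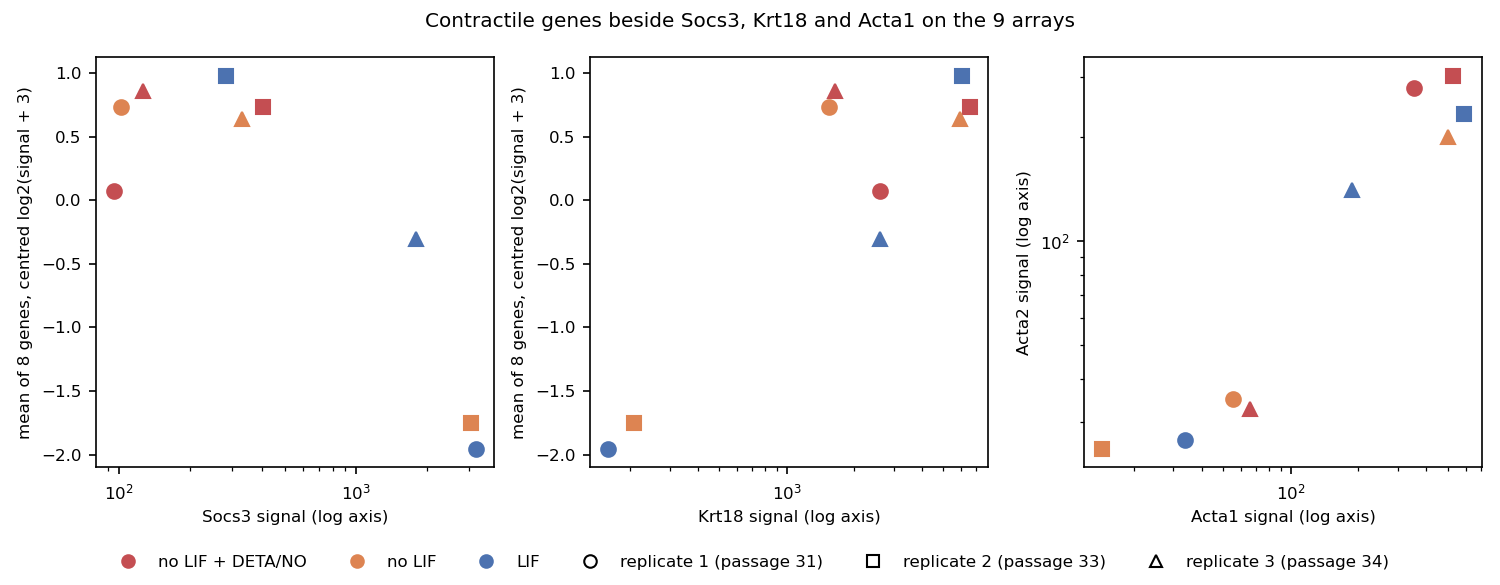
The mean centred log2 signal of the 8 genes against Socs3 (left) and Krt18 (centre), and Acta2 against Acta1 (right), with signals on log axes and 1 point per array coloured by group. The 2 arrays highest in Socs3, at 3054 and 3213, no LIF replicate 2 and LIF replicate 1, are the 2 lowest for the contractile mean, and Acta2 climbs with Acta1.

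Markers of cell types that carry these genes were read next, since cells of a type being fewer and less RNA per cell cannot be told apart in bulk RNA. Defining markers of mature smooth muscle were at the low end. Myosin heavy chain 11 (Myh11), the motor of smooth muscle, had signals of 0.291 to 16.8 and reached the 40th percentile on 1 array. The SRF co-activator Myocd reached it on 2 arrays at 0.764 to 12.7. Of the 5 smooth muscle markers 3 were tested, the brightest being the cytoskeletal proteins smoothelin (Smtn) at 37.7 to 121 and desmin (Des) at 36.5 to 129. Their summed signal was 126.9 to 174.7 on the donor arrays, 85.7 to 297.8 without LIF and 163 to 176.7 with LIF.

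Cardiac markers were dim, and of the skeletal ones Acta1 was bright. Cardiac troponin T (Tnnt2) reached the 40th percentile on 0 arrays, at 0.651 to 11.5, and the 6 cardiomyocyte markers summed to 76.6 to 111.8 on the donor arrays, 72.5 to 109.4 without LIF and 45.2 to 83.1 with LIF. The brightest were Nkx2-5, a transcription factor of the early heart, at 14.5 to 34.5 and atrial myosin heavy chain (Myh6) at 4.83 to 51.8. Of the skeletal markers, Myf5 and Myog, factors of muscle precursors, had signals of 0.139 to 5.11 and 0.462 to 12.9, and only Acta1 exceeded 30 on any array. The skeletal sum, most of it Acta1, was 98.2 to 605.1 with the donor, 55.7 to 520.8 without LIF and 68.6 to 627.4 with LIF. Fibroblast markers Dcn, Lum and Postn reached the 40th percentile on 1, 0 and 0 arrays, with signals up to 12.8, 10.7 and 8.62. Col5a1 at 63.5 to 136.8, Thy1 at 24 to 94.5, Pdgfra at 23.3 to 509.1 and Pdgfrb at 17.1 to 234.6 reached it on all 9 arrays, as did Fn1 and Vim, which stem cells also express, at 1216 to 6635 and 582 to 1973. Of the 11 tested fibroblast markers, 0 had r of 0.5 or more with the contractile mean and 4 had r of -0.5 or less. The fibroblast sum was 3547 to 6679 with the donor, 3422 to 7145 without LIF and 5332 to 8373 with LIF. All 10 markers of parietal and primitive endoderm were tested, and 0 had r of 0.5 or more and 3 of -0.5 or less. Without LIF replicate 1 and no LIF replicate 2, all 10 had r between -0.888 and -0.526, and each was highest on LIF replicate 3. The brightest were the matrix proteins Sparc at 942.2 to 5512 and Lamb1 at 852.4 to 3132, and the sum was 2403 to 5300 with the donor, 2461 to 7365 without LIF and 5248 to 17110 with LIF.

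Other lists did move with the contractile mean. Among all tested genes 25.3% had r of 0.5 or more with it and 18.9% had r of -0.5 or less. All 6 mesendoderm markers had r of 0.5 or more, the brightest being Eomes, a T-box factor, at r = 0.571 and the growth factor Fgf8 at 0.808. Their summed signal was 128.5 to 1084 with the donor, 71.7 to 1102 without LIF and 93.1 to 667.7 with LIF. Of the 5 epithelial markers 4 did, among them the keratin Krt18, which read 2617, 6570 and 1647 on donor replicates 1, 2 and 3, 1536, 208 and 5928 on no LIF replicates 1, 2 and 3, and 160, 6086 and 2593 on LIF replicates 1, 2 and 3. The epithelial sum was 7884 to 19330 with the donor, 4407 to 19660 without LIF and 3947 to 16090 with LIF. Krt18 had r = 0.89 with the mean, and 0.23 without its own 2 farthest arrays, and it followed Acta2 at 0.842 and 0.823. Those arrays were LIF replicate 1 and no LIF replicate 2. Without them Krt8 fell from 0.874 to 0.249 and Epcam from 0.825 to 0.193, while Krt19 went from 0.896 to 0.641. Of the 7 stem cell markers 5 had r of -0.5 or less, Sox2 at -0.873. Without LIF replicate 1 and no LIF replicate 2, Sox2, Tdgf1 and Esrrb had -0.724, -0.624 and -0.574, Dppa5a had -0.457 and Nanog 0.066. The sum of the 7 markers was 11380 to 16030 with the donor, 17200 to 26150 without LIF and 14600 to 21770 with LIF. No marker of these 3 lists was listed at 0, the lowest being Fgf8 at 0.757, and their part in the result was not tested. Of the mesendoderm markers, only Eomes reached the 40th percentile on all 9 arrays. Mesp1 reached it on 7, Mixl1, Fgf8 and Cdx2 on 6 and Gsc on 3. The r of all but Eomes thus rests partly on signals under that level.

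The wider contractile pathway was read from lists chosen with earlier results known. Of 14 further smooth muscle genes 11 were tested, 7, 9 and 9 of them were higher with the donor against no LIF, without LIF against LIF and with the donor against LIF, and 0 were called in each comparison. The brightest, filamin A (Flna), which crosslinks actin, and the acidic calponin Cnn3 had r of -0.04 and 0.4 with the contractile mean. Caldesmon (Cald1) and calponin 2 (Cnn2), picked here after their values were seen, had 0.949 and 0.954. The list as a whole followed less closely, with a median r of 0.403 over its 11 tested genes. Of these, 4 had r of 0.5 or more, beside 25.3% of all tested genes, and 1, Des, had -0.536. Cald1 read 715.1, 1325 and 1272 on donor replicates 1, 2 and 3, 1130, 357.6 and 1896 on no LIF replicates 1, 2 and 3, and 308, 2039 and 828.9 on LIF replicates 1, 2 and 3. It was lowest on the 2 arrays on which the 8 genes were lowest.

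Of 18 genes of the cardiac and striated sarcomere 15 were tested, and 9, 6 and 8 were higher in the 3 comparisons in the same order, with 0 called. The brightest were Acta1 and the atrial light chain Myl4, the second of which had r = -0.72 with the contractile mean at signals of 9.32 to 134. Of 13 non-muscle cytoskeleton genes all 13 were tested and 5, 10 and 8 were higher, with 0 called. The non-muscle actins Actb and Actg1 stayed within 6430 to 11380 and 6601 to 10460 over the 9 arrays.

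Of 14 regulators 11 were tested, with 9, 3 and 4 higher and 0 called. Srf, the factor that binds the CArG box, had signals of 41.7, 184 and 139 on donor replicates 1, 2 and 3, of 142, 70.2 and 101 on no LIF replicates 1, 2 and 3, and of 45.4, 139 and 72.4 on LIF replicates 1, 2 and 3. It was lowest on donor replicate 1 and LIF replicate 1 and had r = 0.733 with the contractile mean. The brightest regulators were the SRF co-activator Mrtfb at 66.6 to 189 (r = 0.691) and the endoderm and heart factor Gata6 at 32.9 to 439 (r = -0.573). Of 9 SRF and YAP targets with a probe set 8 were tested, with 7, 3 and 5 higher and 0 called. The brightest, the secreted matricellular protein Ccn2 and the angiomotin Amotl2, had r of 0.785 and 0.891. Ccn1, picked after its values were seen, had 0.942. Of the 8 tested, 5 had r of 0.5 or more and 1 of -0.5 or less, beside 25.3% and 18.9% of all tested genes. Junb stood at -0.79, Fos at -0.311 and Egr1 at 0.078. Without LIF replicate 1 and no LIF replicate 2, Ccn2 had r = 0.036, Amotl2 0.873 and Ccn1 0.696.

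Genes with the most similar profile were then ranked among 6684 tested genes outside the set, at or above the median signal. Of these, 1.65% had r of 0.9 or more with the contractile mean over the 9 arrays, so the closest genes are the end of a long list. The first 10 were Ptpn13, Dsp, Jun, Rragd, Id2, Esrp1, Tmcc3, Anxa3, Cul4b and Peg3, at r from 0.99 to 0.975. The desmosome protein desmoplakin (Dsp) read 427.5, 662.2 and 729.3 on donor replicates 1, 2 and 3, 698.4, 94.2 and 834 on no LIF replicates 1, 2 and 3, and 112.9, 1059 and 327.4 on LIF replicates 1, 2 and 3. Without the 2 lowest arrays the r of these 10 ran from 0.825 for Tmcc3 to 0.973 for the phosphatase Ptpn13, with Dsp at 0.951. The splicing regulator Esrp1, which acts in epithelial cells, read 9.81 on no LIF replicate 2 and 2.39 on LIF replicate 1, and 38.9 to 424.5 on the other 7 arrays.

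The 5 most opposed genes were Cpne3, Igsf21, AI837181, Inhbb and Mpzl2, at r from -0.945 to -0.931. Inhbb, a subunit of activin B and inhibin B, read 313.9, 17.8 and 7.29 on donor replicates 1, 2 and 3, 16.1, 1205 and 55.1 on no LIF replicates 1, 2 and 3, and 3039, 9.77 and 630.8 on LIF replicates 1, 2 and 3. It was high on the 3 arrays on which the contractile mean was below 0, and it kept r = -0.975 without the 2 lowest. Igsf21 then had -0.875, while Cpne3, AI837181 and Mpzl2 weakened to -0.577, -0.512 and -0.746. Igsf21 read 513.8 and 777.3 on no LIF replicate 2 and LIF replicate 1, and 4.62 to 211 on the other 7 arrays.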

How the data were processed

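Signal intensities on a linear scale were deposited for 9 Affymetrix Mouse Genome 430 2.0 arrays. The design text credits GeneChip Operating System 1.4.0.036 and a global scaling step for them. MAS5 is the tool that the submitters' processing notes list. Scanner files and detection calls were not used here. Values were turned to log2(signal + 3), where 3 is the 20th percentile of the table rounded, so differences of dim probe sets are understated. The 64 control probe sets were left out, and 29811 of 45101 probe sets, covering 13376 genes, were tested.

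All 3 comparisons came from 1 fit over 9 arrays with limma 3.58.1 in R 4.3.3 (eBayes with an intensity trend, group as the only term), two-sided, with Benjamini-Hochberg adjustment over all tested probe sets at 0.05. The small number of arrays, 3 a group, limits the precision: log2 differences had a median standard error of 0.5. For each gene the tested probe set with the highest mean signal stood for it. Symbols came from the platform annotation, where 34945 probe sets have 1, 932 several and 9160 none. All 8 genes matched RefSeq by Entrez identifier.

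The 8 genes, the lists and the tests were chosen with earlier results of these data known. Named genes are the 8, the 2 brightest of each list, checks of the labels, and the 10 genes most like and 5 most unlike the mean of the 8 at or above the median signal. Other genes named, Srf, Klf4, Fgf5 and further markers of the lists among them, lie outside this rule and were picked with their values known. The replicate numbers stand for passages. Same-numbered arrays did not deviate together in every pair (correlations of deviations -0.597 to 0.65), so the replicate block was only an alternative. Others were the pseudocount, the filter, the normalization, the variance trend, the arrays fitted and a block for brightness (the 3 arrays of highest median). The brightness block partly coincides with group.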

Additional observations from a re-analysis of the deposited data

How the results depend on the processing

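No probe set was called in any of the 21 alternative fits per comparison, so 0 of the genes tested in each fit passed. Actg2 was tested only in the fit without a filter on low values. With the filter required on all 9 arrays, only Acta2, Tpm1 and Tpm2 of the 8 were tested. With the replicate block the calls stayed at 0, 0 and 0, and the block, which leaves group differences as they are, changed no median. The number of probe sets at an unadjusted p under 0.05 in limma ran from 486 to 4290 for the donor against no LIF (1498 in the reported fit), from 191 to 2444 for no LIF against LIF (459) and from 229 to 1653 for the donor against LIF (578), with smallest adjusted p of 0.207, 0.476 and 0.366. Leaving out 1 array at a time moved the median log2 difference of the 8 genes to between -0.21 and 1.12, between -0.35 and 1.43 and between 0.01 and 1.72 in those comparisons, and their median pairwise r to between 0.525 and 0.674, with calls from 0 to 0. The median for no LIF against LIF moved past the spread between arrays only without both replicate 2 arrays, at 2.12. Those arrays were singled out by Socs3, which runs against the 8 genes. For single genes 499 values moved by less than the spread within groups and 5 by more, those of Actc1, Tagln, Cnn1, Tpm1 and Tpm2 in that same setting. Centring each array on its median put the median of all tested genes at -0.25, 0.23 and -0.02, against -0.02, 0.01 and -0.01 as reported, and 5, 6 and 8 of the 8 genes above 0. Quantile normalization gave 6, 6 and 7. With each gene taken as the mean over its tested probe sets, the median log2 differences of the 8 genes were 0.78, 0.34 and 0.83. Leaving out LIF replicate 1 and no LIF replicate 2 together, and keeping only the 7 tested genes, were chosen after seeing the data. Signals near or under the 40th percentile, 8.17 to 14.6, limit what can be read from Actc1, Actg2, Cnn1 and Myl9.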
